A study of Mus musculus with 12 samples.

Results

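The nuclear genes for subunits of the respiratory chain were followed in RNA from mouse tibialis anterior, a fast-twitch muscle at the front of the lower leg. Members were all gene symbols of 4 families, Nduf with a letter A, B, C, S or V and a digit (complex I), Uqcr (complex III), Cox4 to Cox8 (complex IV) and Atp5 (complex V), without pseudogene symbols. Of 26264 symbols, 83 matched, and 80 had at least 10 counts in 4 or more of the 12 libraries: 39 of complex I, 8 of complex III, 16 of complex IV and 17 of complex V. Ndufa4 is counted with complex I by its symbol, although its protein is known as a subunit of complex IV. Cox8c, Ndufa11b and Cox7b2 stayed under the minimum, with at most 2, 4 and 2 counts in any library. The lowest member that was kept, Cox6b2, reached 10 counts in 6 libraries. All 80 also passed the filter on low counts of the test, which left 13499 genes.

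The samples were 4 muscles injected with a matrix gel, 4 muscles injected with phosphate-buffered saline (PBS), the vehicle, and 4 uninjured muscles. Per the labels, 50 µl was injected, the gel was at 6 mg/ml, and gel went into the left leg and PBS into the right, so leg and treatment cannot be told apart. The deposited names give the gel and PBS muscles of a replicate the same animal number. The strain, sex and age of the mice, the kind of injury, the time to collection and the origin of the uninjured muscles are not stated in the labels.

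The respiratory chain passes electrons from NADH and succinate to oxygen and pumps protons across the inner mitochondrial membrane, and ATP synthase (complex V) uses the returning protons to make ATP. Each complex joins a few core subunits, among them those with the catalytic centres, with many small accessory subunits that stabilise or tune it. The catalytic subunits of complex IV are encoded by mitochondrial DNA, which makes all its nuclear subunits accessory. Several complex IV subunits exist in a heart and muscle form and a form found in most tissues, and fast-twitch muscle holds fewer mitochondria than slow muscle.

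Library totals lay between 15626086 and 22182483 counts, of which the 80 members took 3.16% to 4.22% in gel muscle, 3.26% to 3.73% in PBS muscle and 3.42% to 3.70% in uninjured muscle. The muscle label fitted the 11 muscle fibre markers, which summed to between 154000 and 297200 CPM (counts scaled to library size). Of 12 macrophage markers, 11 were higher in gel than in PBS muscle, none was at 0 in all libraries, and their summed level was 1231, 2487, 110.1 and 2756 CPM in the 4 gel libraries, against 31.4 to 67.3 CPM in PBS muscle and 42.9 to 85.3 CPM in uninjured muscle. Gel 3 stood apart from the other gel libraries in this list, and also on the first principal component (5.39 for gel 3, against -91.4 to -67.4 for the other gel libraries, 17.2 to 46.5 for PBS and 21.5 to 37.1 for uninjured). Main results are given with and without it. In whole muscle, fewer cells of a type and less RNA per cell cannot be told apart.

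Per length of transcript, the member with the highest level was Cox6a2, the heart and muscle form of subunit 6A, with 6342, 9072 and 8864 CPM per kilobase on average in gel, PBS and uninjured muscle. Next in uninjured muscle came Cox8b, the muscle form of subunit 8, with 2597 CPM per kilobase, and Ndufa3, a small membrane subunit of complex I, with 2198 CPM per kilobase. The median over the 80 members was 441.1 CPM per kilobase in gel muscle, 400.1 in PBS muscle and 480.7 in uninjured muscle. At the low end were Cox6b2, known as the testis form of subunit 6B, Ndufb4c, a near copy of Ndufb4, Cox4i2, a form of subunit 4 known for hypoxic tissue and lung, and Ndufa4l2, known for its induction by hypoxia, all under 19 CPM per kilobase in uninjured muscle. Both members of a pair with near-identical sequence, such as Ndufb4 and Ndufb4c, have uncertain counts, since the handling of reads with several matches is not stated.

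Gel against PBS compares the 2 injected legs of the same animals. The main edgeR fit had no term for the animal, so its p-values and standard errors here do not account for that pairing. The median subunit differed little. Of the 11 higher calls, all of them accessory subunits, 4 were in complex IV, 3 each in complexes I and V and 1 in complex III. Among the lower calls were 2 large core subunits of ATP synthase. By edgeR's quasi-likelihood test at an adjusted p under 0.05, 11 members were higher in gel muscle and 3 lower, and with scaling by library totals alone the split was 38 and 1 and with scaling to 11 muscle fibre genes 60 and 0, as the median of all genes then stood at 0.25 and 0.47 on the log2 scale. The last scaling was chosen after seeing the data. Of all genes tested, 29.8% were called, 16.6% higher and 13.2% lower, so 17.5% of members called is a smaller share than the background. With library totals alone it was 48.8% of members against 32.7% of all genes, and with scaling to muscle fibre genes 75% against 42.4%. An unadjusted p under 0.05 was found for 24 of 80 members, against 41.8% of all genes. The median log2 fold change was 0.10 over the members and 0.04 over all genes. Of the members, 9 were higher and 1 was lower without overlap between the 4 gel and the 4 PBS libraries, against 10.4% and 9.74% of all genes (20.1% in either direction).

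Among the complexes, IV had the highest median, 0.24, with 4 higher, 1 lower and 11 of 16 not called. All members of complex IV are accessory, however. Among accessory members alone, a class set after the values were seen, the medians were 0.08 in complex I, 0.14 in III and 0.27 in V. Over all its members, complex I had a median of 0.04 with 3 of 39 higher. Complex III had 0.11 with 1 of 8 higher, and complex V 0.04 with 3 higher and 2 lower of 17. On leaving out each library in turn the median lay between -0.02 (without gel 1) and 0.11 in complex I, between 0.02 (without gel 1) and 0.17 in complex III, between 0.18 and 0.30 in complex IV, and between -0.01 (without gel 3) and 0.10 in complex V. With the replicate number as a block in a fit of all 12 libraries, 23 members were called, 15 higher and 8 lower (28.8%, against 35.7% of all genes). All 14 were among them. The number marks the animal of both injected legs, but the uninjured libraries, of unstated origin, also entered that fit by their number. Without gel 3 the count was 24, of which 12 were higher and 12 lower (30%, against 42.7% of all genes), and it was 7 without gel 4, 6 without PBS 1 and 8 without PBS 2.

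**Figure D1:**
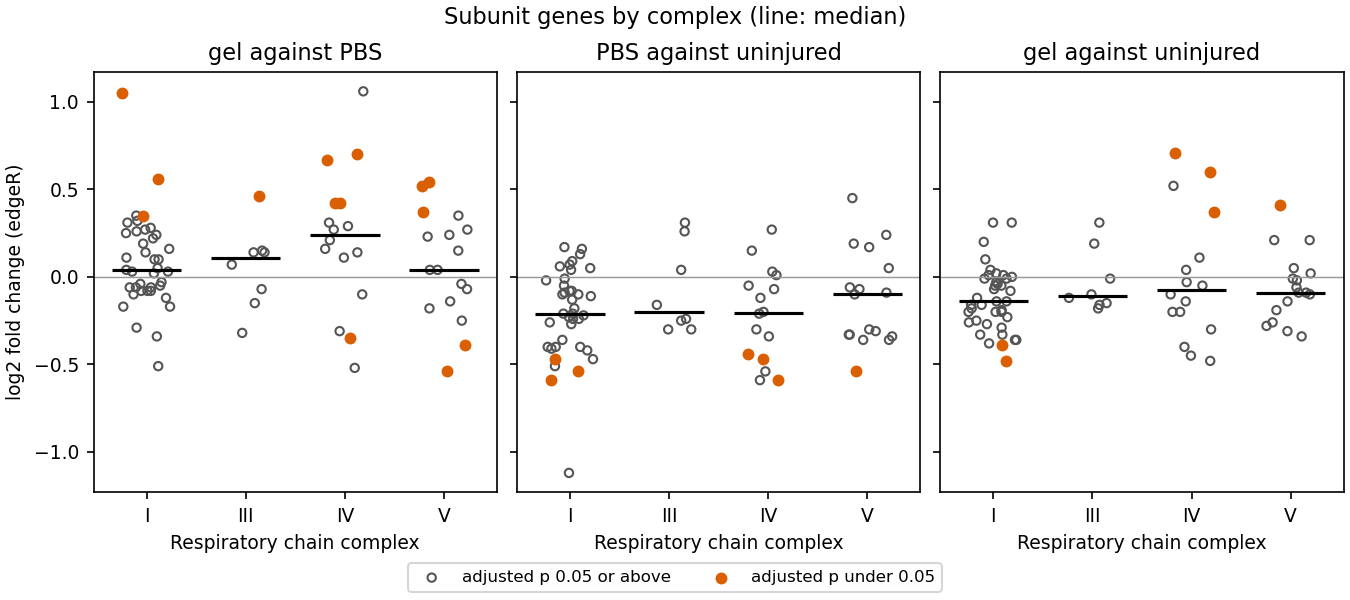
Log2 fold change from edgeR (vertical axis) of each of the 80 subunit genes, grouped by respiratory chain complex, in the 3 comparisons; filled points passed an adjusted p of 0.05 and bars mark medians. Complex IV had the highest median of gel against PBS at 0.24, though among accessory subunits alone complex V had 0.27. Every complex had a median under 0 in PBS against uninjured muscle. Scaling to muscle fibre genes put the median of all genes at 0.47 in gel against PBS and at 0.57 in gel against uninjured. Like library totals alone, it turned the complex medians of gel against uninjured above 0.

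Within complex IV the higher calls were the forms found in most tissues. Cox8a, that form of subunit 8, had 97.2, 105, 80.8 and 119 CPM in gel muscle, against 55.5, 60.03, 69.6 and 63.6 CPM in PBS muscle and 64.6, 63.9, 59.1 and 58.5 CPM in uninjured muscle. Each gel library lay above every PBS and uninjured library. The log2 fold change of gel against PBS was 0.70 ± 0.12 (SE, n = 4 each, edgeR adjusted p = 0.00228), and 0.77 without gel 3.

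Cox6a1, the widely expressed form of subunit 6A, had 71.01, 58.7, 42.9 and 76.97 CPM in gel muscle, against 33.96, 39.9, 43.3 and 39.7 CPM in PBS muscle and 46.8, 42.5, 37.7 and 37.3 CPM in uninjured muscle. Gel 1, 2 and 4 were above all other libraries, while gel 3 lay within the PBS range. Its log2 fold change was 0.67 ± 0.16 (edgeR adjusted p = 0.00639), and 0.80 without gel 3. The muscle form Cox6a2 had 5846, 3311, 5271 and 2824 CPM in gel muscle, against 5652, 6433, 7131 and 5461 CPM in PBS muscle and 5447, 6220, 6157 and 6286 CPM in uninjured muscle, with a log2 fold change of -0.52 ± 0.20 in gel against PBS that did not pass the test (edgeR adjusted p = 0.062). Gel 2 and gel 4 were below every other library, gel 1 lay within the PBS range and gel 3 just under it.

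Cox6b1, the common form of subunit 6B, had 961, 786, 857 and 969 CPM in gel muscle, against 590.5, 665, 721 and 696 CPM in PBS muscle and 703, 694, 692 and 676 CPM in uninjured muscle, so that all gel libraries were above all others. It rose by 0.42 ± 0.12 on the log2 scale (edgeR adjusted p = 0.0162), a call that was lost without gel 4 or PBS 1 (adjusted p = 0.056 to 0.0653). Cox7a2, the form of subunit 7A found in most tissues, had 166, 156, 178 and 197 CPM in gel muscle, against 119, 123, 144 and 136 CPM in PBS muscle and 183, 159, 174 and 194 CPM in uninjured muscle. The PBS libraries were the low ones here and overlapped neither other group. Its gel against PBS difference was 0.42 ± 0.12 (edgeR adjusted p = 0.0157), lost without gel 4, PBS 1 or PBS 2 (0.0517 to 0.0779).

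The lower call of the complex was Cox7a2l, a factor that joins complexes III and IV into supercomplexes, with 75.7, 94.5, 104 and 105 CPM in gel muscle, against 119.6, 112, 131 and 122 CPM in PBS muscle and 109.7, 103, 112 and 111 CPM in uninjured muscle. All gel libraries were below all PBS libraries, gel 1 the lowest. The log2 fold change of -0.35 ± 0.12 (edgeR adjusted p = 0.0334) was lost without gel 1, gel 2, PBS 1, PBS 3 or PBS 4 (0.053 to 0.0842), and its direction turned to 0.08 with scaling to 11 muscle fibre genes. In the same complex, Cox4i1, the common form of subunit 4, which joins the complex early in its assembly, differed by 0.16 ± 0.12 (edgeR adjusted p = 0.34), and Cox5a by -0.31 ± 0.15 (0.134).

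For 65 of the 80 members the RefSeq promoter table of GRCm38.p6 held a window from 250 bases before to 50 bases after a start, 70 windows in all. The letters CCGGAAG, a core of the sites of ETS factors such as GABP, which are known regulators of respiratory genes, were found on either strand in 21.4% of the members' windows and in 8.86% of all 32851 windows. Among the 8 members called higher in gel against PBS that had a window, 6 held it, namely Atp5k, Atp5md, Cox6a1, Cox6b1, Cox8a and Uqcrh. The NRF1 motif was in 22.9% of the members' windows and 4.60% of all, the ERR motif AAGGTCA in 10% and 4.72%, the YY1 motif in 5.71% and 0.986%, and the muscle E-box CAGCTG in 8.57% and 16.3%. Among the same 8 members, 2 held the NRF1 motif, 1 the ERR motif and none the YY1 motif or the E-box. Of 6 members called lower in PBS against uninjured muscle that had a window, 1 held the ETS core. The called members were picked from these same data, and no share was tested. These are matches of letters and show no binding. The 120 bases from 100 before to 20 after the start are given 5′ to 3′ on the gene's strand, with matches in capitals, for the 2 highest complex IV calls, for Atp5k of ATP synthase, where both an NRF1 and an ETS match are shown, for the complex III call, and for Cox8b, the muscle counterpart of Cox8a, whose capitals mark an E-box. Their positions in GRCm38.p6 are chr19:7217597-7217716 for Cox8a, chr5:115348939-115349058 for Cox6a1, chr5:108434380-108434499 for Atp5k, chr4:116075051-116075170 for Uqcrh and chr7:140900427-140900546 for Cox8b, all on the minus strand. In the first 4 of these the ETS core reads CTTCCGG, its reverse complement.
Cox8a: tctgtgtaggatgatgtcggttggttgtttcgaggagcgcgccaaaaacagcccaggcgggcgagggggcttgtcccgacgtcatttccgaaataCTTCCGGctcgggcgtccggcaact
Cox6a1: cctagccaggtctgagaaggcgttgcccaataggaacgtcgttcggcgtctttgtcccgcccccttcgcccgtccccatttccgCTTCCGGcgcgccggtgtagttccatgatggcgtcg
Atp5k: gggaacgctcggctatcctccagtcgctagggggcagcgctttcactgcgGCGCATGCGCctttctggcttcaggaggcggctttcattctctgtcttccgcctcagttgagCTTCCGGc
Uqcrh: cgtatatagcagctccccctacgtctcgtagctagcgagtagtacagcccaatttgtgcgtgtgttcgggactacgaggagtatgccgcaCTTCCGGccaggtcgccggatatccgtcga
Cox8b: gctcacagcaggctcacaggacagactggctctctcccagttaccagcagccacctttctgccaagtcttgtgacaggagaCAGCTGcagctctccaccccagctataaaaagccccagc

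In complex V, 3 of 9 accessory subunits were higher and 2 of 5 core subunits lower in gel than in PBS muscle. Of all genes, 16.6% were higher and 13.2% lower. The other members, the 3 c-ring genes included, did not pass the test. Atp5mpl, a small proteolipid of the membrane part, had 219.8, 205, 193 and 262 CPM in gel muscle, against 136, 146, 167 and 156 CPM in PBS muscle and 186, 176, 203 and 194 CPM in uninjured muscle. It rose by 0.54 ± 0.12 on the log2 scale relative to PBS (edgeR adjusted p = 0.00508), and by 0.59 without gel 3. Atp5k, subunit e, which joins ATP synthase dimers, had 165, 156, 159.7 and 219 CPM in gel muscle, against 119.5, 119, 139 and 111 CPM in PBS muscle and 151, 146, 148 and 162 CPM in uninjured muscle. Its difference was 0.52 ± 0.13 (edgeR adjusted p = 0.00803), and 0.37 (0.0422) without gel 4, the highest library. For both genes the 4 gel libraries lay above the 4 PBS libraries.

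Atp5md, a small dimer-linked subunit also known as DAPIT, had 361, 286, 340.4 and 295 CPM in gel muscle, against 220.0, 238, 273 and 264 CPM in PBS muscle. The groups did not overlap, and the difference of 0.37 ± 0.13 (edgeR adjusted p = 0.0418) was kept on leaving out gel 3, but missed the threshold on leaving out any of the other 11 libraries (0.0525 to 0.124).

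Atp5a1, the alpha subunit of the F1 head, had 1310, 1208, 1849 and 1315 CPM in gel muscle, against 2030, 2260, 2169 and 1779 CPM in PBS muscle and 1550, 1471, 1488 and 1534 CPM in uninjured muscle. Gel 3 lay above PBS 4, and the other gel libraries lay below every other library. The fold change of gel against PBS was -0.54 ± 0.14 on the log2 scale (edgeR adjusted p = 0.0128), and -0.70 without gel 3. Atp5b, the beta subunit that carries the catalytic sites, had 2488, 1883, 2748 and 2153 CPM in gel muscle, against 3066, 3201, 3273 and 2580 CPM in PBS muscle and 2852, 2945, 2852 and 3052 CPM in uninjured muscle. Its difference of -0.39 ± 0.14 (edgeR adjusted p = 0.0461) turned to 0.03 with scaling to 11 muscle fibre genes, and the call was lost on leaving out any library other than gel 3 and PBS 4 (0.0543 to 0.129). Gel 3 again lay within the PBS range. Muscle fibre markers tended to be lower in gel muscle. Of the 11, 4 fell and 1 rose in gel against PBS, where 13.2% of all genes were lower and 16.6% higher. The markers' mean log2 level relative to uninjured muscle was -0.50, -0.58, -0.26 and -0.78 in gel and -0.29 to -0.03 in PBS muscle. Their part in these results was not tested.

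Complex I had 3 higher calls, all accessory subunits. Ndufb1, a small subunit of the membrane arm, had 80.5, 70.9, 66.2 and 84.5 CPM in gel muscle, against 44.9, 44.7, 61.4 and 54.6 CPM in PBS muscle and 73.3, 68.6, 81.5 and 75.8 CPM in uninjured muscle. The PBS libraries were the low group, and it rose by 0.56 ± 0.13 in gel against PBS (log2, edgeR adjusted p = 0.0056), and by 0.60 without gel 3. Ndufa2, of the matrix arm, had 103, 82.7, 113 and 115 CPM in gel muscle, against 73.2, 72.8, 93.8 and 84.7 CPM in PBS muscle, overlapping in gel 2 (0.35 ± 0.13, edgeR adjusted p = 0.0474). That call was lost on leaving out any library other than gel 2 and PBS 3 (0.065 to 0.178). The near copy Ndufb4c had 3.93, 1.80, 4.15 and 6.84 CPM in gel muscle, against 1.48, 1.74, 2.98 and 1.92 CPM in PBS muscle, with the groups overlapping through gel 2. Its difference of 1.05 ± 0.35 (edgeR adjusted p = 0.0341) was lost without gel 4, PBS 1, PBS 2 or PBS 4 (0.0737 to 0.177), and was 0.67 without gel 4.

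Uqcrh, the hinge subunit of complex III that binds cytochrome c1, had 233, 266, 314 and 343 CPM in gel muscle, against 194, 187, 233 and 224 CPM in PBS muscle and 236, 225, 220.1 and 254 CPM in uninjured muscle. Every gel library lay above every PBS library, although gel 1 exceeded PBS 3 by little. The difference was 0.46 ± 0.13 (log2, edgeR adjusted p = 0.0184), lost without gel 4, PBS 1 or PBS 2 (0.0548 to 0.0917). The Rieske iron-sulfur subunit Uqcrfs1, with -0.32 ± 0.13 (edgeR adjusted p = 0.0749), had the lowest value of the complex.

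**Figure D2:**
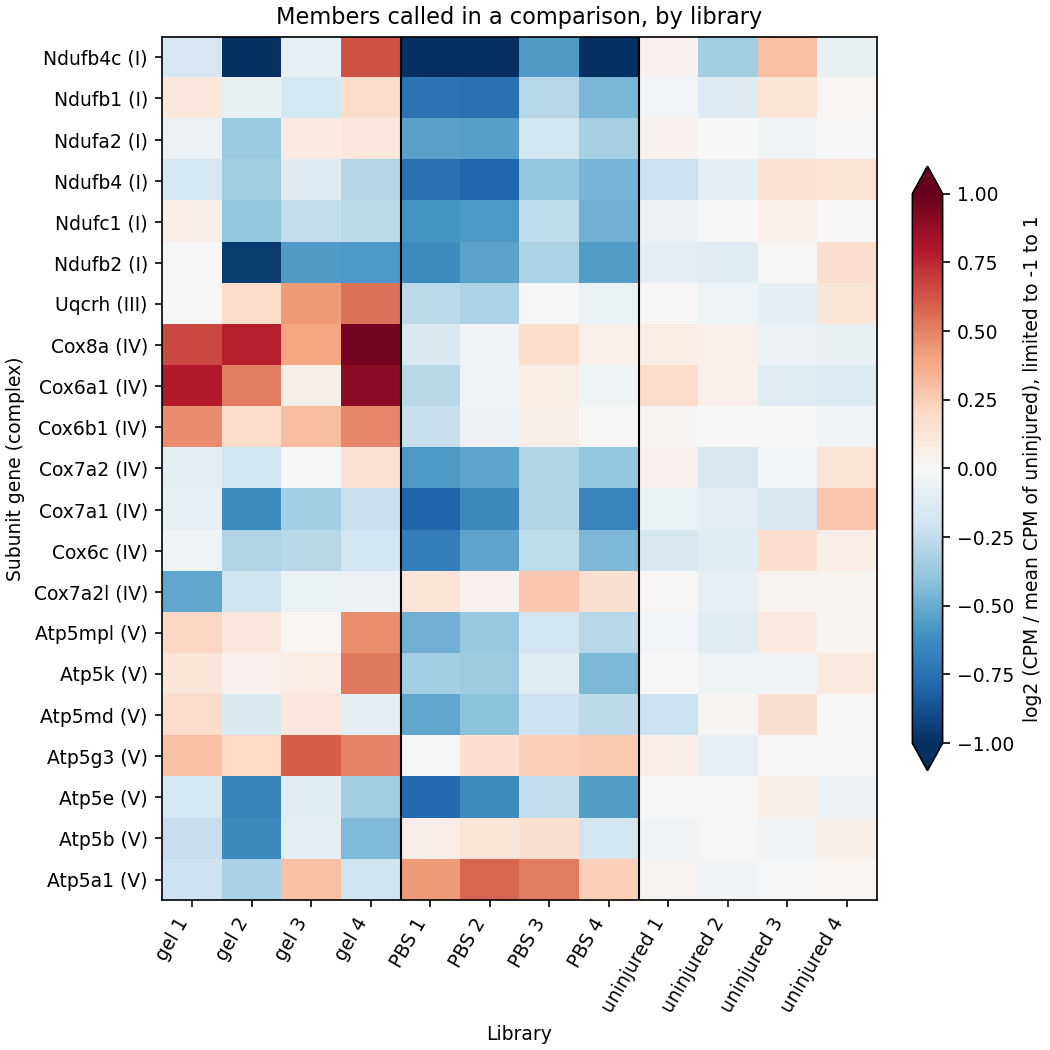
Heat map of 21 subunit genes called in a comparison (rows, with their complex) in the 12 libraries (columns); colour is the log2 ratio of CPM to the mean of the uninjured libraries, limited to -1 and 1. Cox8a, Cox6a1 and Cox6b1 were high in gel libraries, while Ndufb1, Ndufb4, Cox7a1, Cox6c and Atp5e were low in the PBS libraries, most often in PBS 1.

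PBS against uninjured muscle compares muscles injected with the vehicle and uninjured muscles, whose origin is not stated, so that vehicle, injury and animal cannot be told apart. Most subunits stood slightly lower in PBS muscle: 60 of 80 fold changes were negative, and the median was -0.21 on the log2 scale, against 0 over all genes. No member was higher and 7 were lower at an edgeR adjusted p under 0.05, where 6.17% of all genes were called, 2.79% higher and 3.39% lower. An unadjusted p under 0.05 was found for 29 of 80 members, against 22.4% of all genes, and DESeq2 called 18, of which 1 was higher and 17 were lower (22.5%, against 10.5% of all genes). With library totals alone 3 were higher and 6 lower, and with scaling to muscle fibre genes, which moved the median of all genes to 0.11, 2 were higher and none lower. PBS and uninjured libraries did not overlap for 24 members in the lower and 6 in the higher direction, against 10.2% and 10.4% of all genes (20.6% in either direction). The medians were -0.21 in complex I, -0.20 in complex III, -0.21 in complex IV and -0.10 in complex V, the last at -0.16 without PBS 3.

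The 7 members that fell in PBS muscle were small subunits. Ndufb4, of the membrane arm of complex I, had 165, 160.4, 211 and 200.1 CPM in PBS muscle, against 238, 259, 305 and 302 CPM in uninjured muscle. Its groups did not overlap, and the change was -0.59 ± 0.13 on the log2 scale (n = 4 each, edgeR adjusted p = 0.0146). Ndufb1, given above, changed by -0.54 ± 0.13 (0.0204), and Ndufc1, also of complex I, by -0.47 ± 0.12 (0.0308), with 93.1, 94.3, 118 and 101 CPM in PBS muscle, against 135, 141, 146 and 141 CPM in uninjured muscle.

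In complex IV, the muscle form Cox7a1 had 369.5, 413, 522 and 407 CPM in PBS muscle, against 615, 602, 580.4 and 781 CPM in uninjured muscle, and fell by 0.59 on the log2 scale (SE 0.15, edgeR adjusted p = 0.0315). Its counterpart Cox7a2 changed by -0.44 ± 0.12 (0.0343). Cox6c, a membrane subunit with no catalytic centre, had 368, 410.3, 496 and 432 CPM in PBS muscle, against 530.0, 550.5, 665 and 618 CPM in uninjured muscle, with a change of -0.47 ± 0.13 (0.0419). In all 3 genes the highest PBS library, PBS 3, still lay below the lowest uninjured library.

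In complex V, Atp5e, the epsilon subunit of the central stalk, had 132, 145, 190.1 and 153 CPM in PBS muscle, against 223, 227, 234 and 216 CPM in uninjured muscle (-0.54 ± 0.14, edgeR adjusted p = 0.0333). PBS 1 and PBS 2 were the lowest libraries for all 7 members other than Cox7a1, for which they were PBS 1 and PBS 4. The calls rested on few libraries: none of the 7 was called without PBS 1, without PBS 2, without uninjured 3 or without uninjured 4, and 2 were called without PBS 4, without uninjured 1 or without uninjured 2. Gel 3 belongs to neither group and enters only through the low-count filter, the scaling and the estimate of spread. Without gel 3, 20 members were called, 2 higher and 18 lower (25%, against 12.1% of all genes). In the other direction, Atp5a1 was higher without overlap (0.45 ± 0.14, edgeR adjusted p = 0.0774), as were Uqcrfs1 (0.31 ± 0.13, 0.163) and Cox5a (0.27 ± 0.15, 0.328), and none of them passed the test.

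Gel against uninjured muscle had few differences among subunits. At an edgeR adjusted p under 0.05, 4 members were higher and 2 lower, where 25.6% of all genes were called, 14.5% higher and 11.1% lower, and with library totals alone, with the median of all genes at 0.30, 15 were higher and none lower (18.8%, against 33.2% of all genes). With scaling to muscle fibre genes, and that median at 0.57, 52 were higher and none lower (65%, against 54.7% of all genes). An unadjusted p under 0.05 was found for 18 of 80 members, against 38.6% of all genes. The members' median was -0.10, against 0.03 over all genes. Complex medians were -0.14 in I, -0.11 in III, -0.07 in IV and -0.09 in V, with ranges of -0.21 to -0.09, -0.18 to -0.04, -0.16 to -0.03 and -0.19 to -0.02 on leaving out each library in turn, and all 4 turned positive with library totals alone or with scaling to muscle fibre genes. The same libraries serve the other comparisons, so the 3 sets of fold changes are not independent.

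Cox8a was 0.71 ± 0.13 higher in gel than in uninjured muscle on the log2 scale (edgeR adjusted p = 0.00123), and the call was kept on leaving out each of the 12 libraries in turn. Cox6a1 was higher by 0.60 ± 0.16 (0.0118), lost without gel 4 (0.0558), and Cox6b1 by 0.37 ± 0.12 (0.0319), lost without gel 1, gel 4, PBS 4 or any uninjured library (0.0651 to 0.12). The last higher call was Atp5g3, which encodes the proton-carrying c subunit of ATP synthase, with 372, 347, 460.2 and 427 CPM in gel muscle, against 316, 286, 305 and 304 CPM in uninjured muscle. The groups did not overlap (0.41 ± 0.12, edgeR adjusted p = 0.0228), and the call was lost without gel 4, PBS 4 or uninjured 2, 3 or 4 (0.0509 to 0.0888).

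Of the 2 lower calls, 1 is described here. Ndufb2, an accessory subunit, had 145, 75.5, 98.3 and 97.9 CPM in gel muscle, against 137, 136, 147 and 164 CPM in uninjured muscle, with gel 1 inside the uninjured range (-0.48 ± 0.16, edgeR adjusted p = 0.0395). That call was lost without gel 2, gel 4 or any uninjured library (0.0561 to 0.101), and the change turned to 0.05 with scaling to muscle fibre genes. Without gel 3 the members called numbered 19, of which 4 were higher and 15 lower (23.8%, against 38.3% of all genes), and without gel 4 only Cox8a was called.

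Core and accessory subunits were then set apart, a classification made after the values were seen and given without a test. The 15 core members are the 7 of complex I that hold its redox centres or quinone site, the 3 of complex III (Uqcrc1, Uqcrc2 and Uqcrfs1) and the 5 of the F1 head and its stalk. This core class is not limited to subunits that hold a catalytic centre. The c-ring genes form a class of 3, and the other 62 members are accessory. In gel against PBS the median log2 fold change was -0.15 for core and 0.14 for accessory members. Of the core members 2 were lower and none higher, and of the accessory members 11 were higher and 1 lower. Of all genes, 16.6% were higher and 13.2% lower. In either direction 13.3% of core and 19.4% of accessory members were called, both smaller shares than the 29.8% of all genes. In PBS against uninjured muscle the medians were 0.04 for core and -0.24 for accessory members, and in gel against uninjured muscle they were -0.09 and -0.11. Both of the first comparisons share the PBS libraries, so that an offset in those libraries appears in both with opposite sign.

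The difference within each library, core minus accessory, does not depend on scaling between libraries. As a mean log2 level relative to uninjured muscle it was -0.08, -0.09, 0.15 and -0.15 in gel muscle, 0.28, 0.31, 0.23 and 0.14 in PBS muscle, and 0, 0, 0.02 and -0.02 in uninjured muscle. All 4 PBS libraries lay above all uninjured libraries, and gel 3 lay with the PBS libraries, above PBS 4. The other gel libraries were slightly under 0. With TMM scaling, the split in complex III followed the classes: all 3 core members were negative and all 5 accessory members positive in gel against PBS, and the reverse held in PBS against uninjured muscle.

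**Figure D3:**
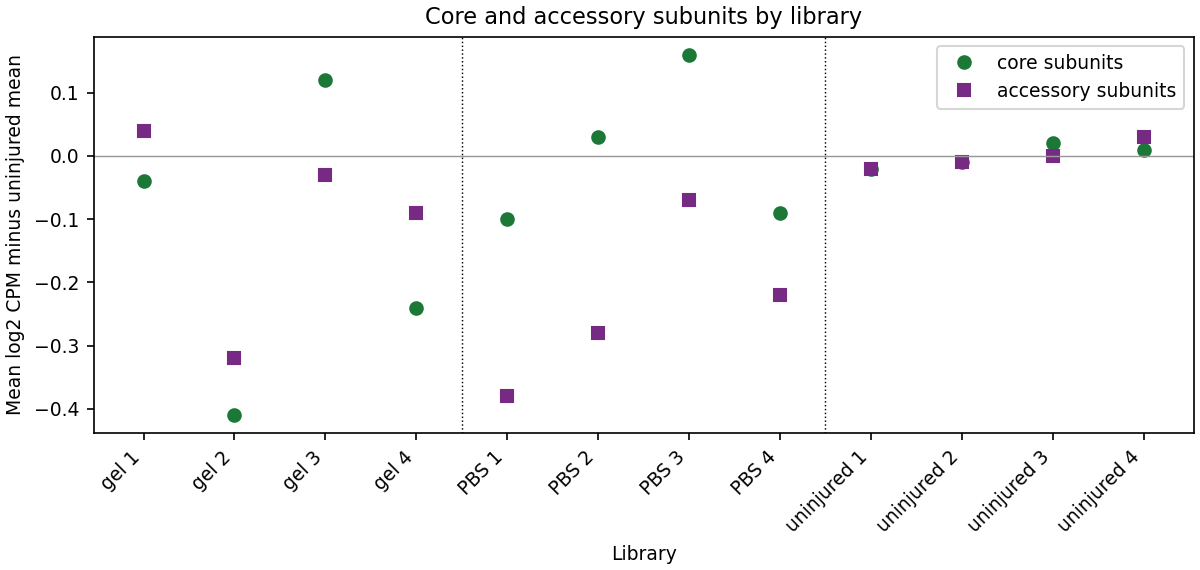
Mean log2 CPM of the 15 core subunits (circles) and 62 accessory subunits (squares), relative to the uninjured mean, in each of the 12 libraries. Core lay above accessory subunits in the 4 PBS libraries and gel 3, by 0.14 to 0.31. In uninjured muscle both classes average 0 by construction, since levels are relative to the mean of that group.

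The same split went with transcript length, taken as the median length of protein-coding transcripts in GENCODE M21. Over the 80 members, Spearman's rho between length and log2 fold change was -0.54 in gel against PBS, 0.53 in PBS against uninjured muscle and -0.06 in gel against uninjured muscle. Over the 13367 genes tested with a length it was -0.11, 0.12 and -0.02. The 41 shorter members, with a median of 470 bases, had median log2 fold changes of 0.25 in gel against PBS, -0.30 in PBS against uninjured and -0.10 in gel against uninjured muscle. The 39 longer members, with a median of 934 bases, had -0.06, -0.06 and -0.12. These are descriptions across genes, which share the libraries and are not independent replicates. Every core member other than Atp5e had a length of 758 bases or more, and 13 accessory members were as long. Among members of that length, the median log2 fold change of the 14 core members was -0.16 in gel against PBS, 0.04 in PBS against uninjured and -0.09 in gel against uninjured muscle, and that of the 13 accessory members was 0.04, -0.10 and -0.14. The core members were still the longer, with a median of 1400.5 bases, against 1001 bases in the accessory members. The 49 shorter accessory members had 0.15, -0.27 and -0.10. Ndufb1 and Ndufb4, of 861 and 971 bases, had -0.54 and -0.59 in PBS against uninjured muscle. Class and length thus overlap in part, and the part of RNA quality or library preparation was not tested.

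**Figure D4:**
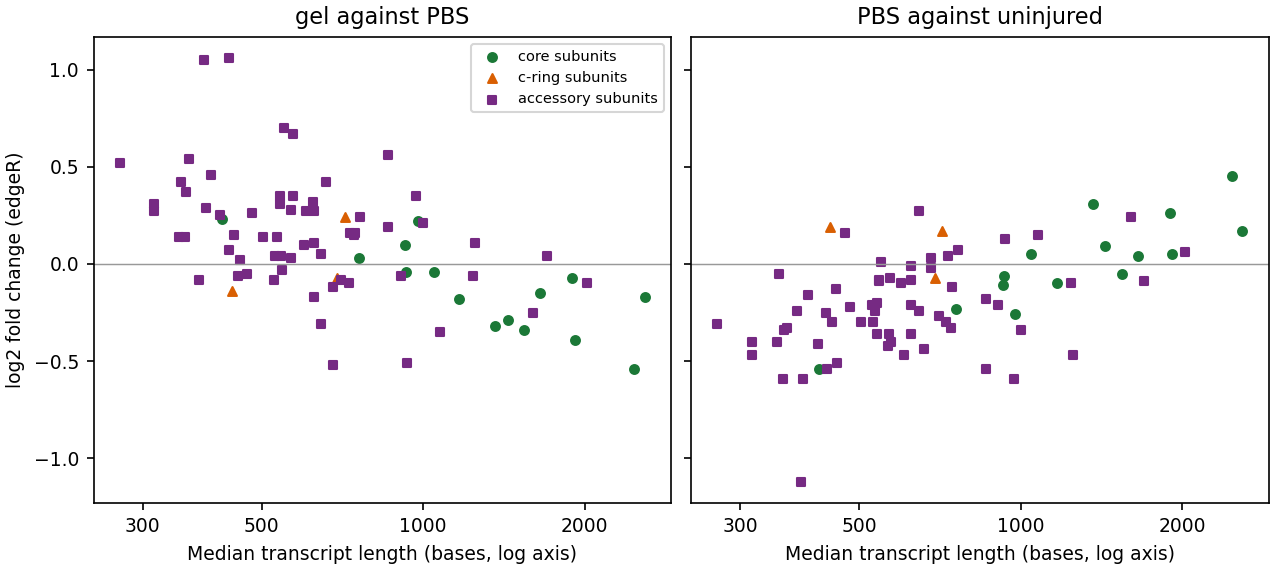
Log2 fold change from edgeR (vertical axis) against median transcript length in bases (log axis) for the 80 subunit genes in gel against PBS and in PBS against uninjured muscle, by class. Short transcripts tended to be higher in gel than in PBS muscle and lower in PBS than in uninjured muscle, with Spearman's rho of -0.54 and 0.53; another scaling would shift all points of a panel alike.

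Paired forms of a subunit were compared as the log2 ratio of their counts within a library, for 6 pairs in 3 comparisons. With 4 libraries against 4, the smallest p of the exact permutation test is 0.0286, and after Benjamini-Hochberg adjustment over the 18 tests none passed 0.05. The test exchanged libraries freely between groups. In gel against PBS it thus ignored that both legs of a replicate came from the same animal, and its p there does not account for that pairing. The muscle form Cox6a2 over Cox6a1 had log2 ratios of 6.36, 5.82, 6.94 and 5.20 in gel muscle, against 7.38, 7.33, 7.36 and 7.10 in PBS muscle and 6.86, 7.19, 7.35 and 7.40 in uninjured muscle. All gel ratios were below all PBS ratios, gel 4 the lowest and gel 3 the nearest. The difference of gel minus PBS was -1.21 (two-sided exact permutation p = 0.0286, adjusted p = 0.171), and that of gel minus uninjured -1.12 (exact permutation p = 0.0571, adjusted p = 0.257).

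Cox8b over Cox8a had log2 ratios of 3.01, 2.15, 3.43 and 2.36 in gel muscle, against 3.15, 3.24, 3.41 and 3.43 in PBS muscle and 3.78, 3.98, 3.98 and 3.97 in uninjured muscle. Every injected muscle lay below every uninjured muscle, whether gel or PBS was given. The difference was -1.19 for gel minus uninjured and -0.62 for PBS minus uninjured (each with a two-sided exact permutation p = 0.0286 and an adjusted p = 0.171). Gel minus PBS was -0.57 (exact permutation p = 0.171, adjusted p = 0.343), with gel 3 among the highest.

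Cox7a1 over Cox7a2 differed less, by -0.13 in gel minus PBS, -0.15 in PBS minus uninjured and -0.28 in gel minus uninjured muscle (exact permutation p = 0.314, 0.171 and 0.0857, and adjusted p = 0.435, 0.343 and 0.309). For the low forms Cox4i2 over Cox4i1, Cox6b2 over Cox6b1 and Ndufa4l2 over Ndufa4, the exact permutation p ranged from 0.114 to 1, and Cox6b2 had 0 counts in gel 3. The gel libraries with the lowest Cox6a2 over Cox6a1 and Cox8b over Cox8a ratios, gel 2 and gel 4, were also those with the highest summed macrophage level, 2487 and 2756 CPM, and gel 3 had the lowest of it, 110.1 CPM. Fibroblast markers were also highest in gel 4 and lowest in gel 3, but gel 2 lay below gel 1. Their mean log2 levels relative to uninjured muscle were 1.75, 1.55, -0.36 and 1.86 in gel muscle, against 0.83, -0.37, -0.62 and -0.27 in PBS muscle. Of 6 in that list, 3 were higher and none lower in gel against PBS, the collagen genes Col1a1 (2.33), Col1a2 (2.07) and Col3a1 (2.13, lost without gel 1, gel 2, gel 4, PBS 2 or PBS 3), named after their values were seen. The part of macrophages, fibroblasts or fibre type in these ratios was not tested. Slow and oxidative fibre markers had overlapping mean log2 levels, -0.33 to 0.86 in gel, -0.53 to 0.92 in PBS and -0.81 to 1.61 in uninjured muscle. Of these 9, 1 was called in gel against PBS, where 29.8% of all genes were. It was the oxygen-binding myoglobin gene Mb (-0.63 ± 0.21, edgeR adjusted p = 0.0378). In gel against uninjured muscle 2 were called, and 25.6% of all genes. They were the slow troponin genes Tnnt1 (1.83 ± 0.57, 0.0381) and Tnni1 (2.67 ± 0.84, 0.0411), whose differences were 2.87 and 4.46 without uninjured 4. These 3 genes were named after their values were seen, and the calls were lost on leaving out any 1 of 5 libraries for Mb, 8 for Tnnt1 and 9 for Tnni1.

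**Figure D5:**
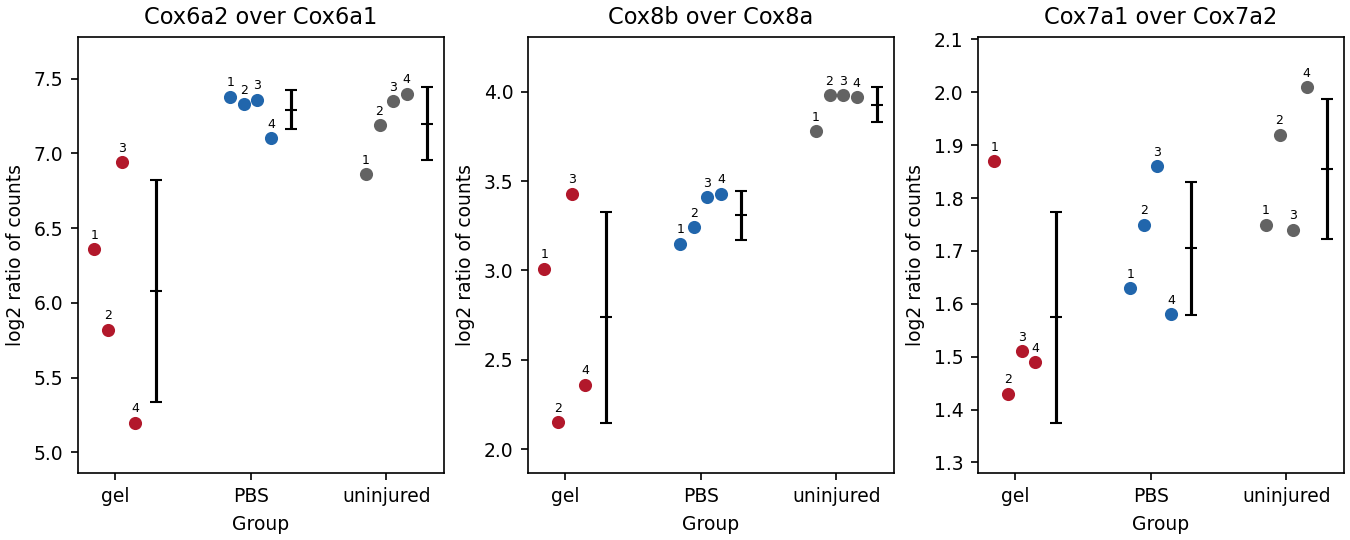
Log2 ratio of counts (vertical axis, one scale per panel) of the muscle form over the widely expressed form of 3 complex IV subunits in each library, numbered by replicate, with the group mean and SD as bars. Cox8b over Cox8a was lower in all injected muscles than in the uninjured ones, and gel 2 and gel 4 had the lowest ratios of Cox6a2 over Cox6a1.

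Other genes of the pathway were taken from lists chosen with earlier results of these data known. Beside the counts of calls in these lists, 29.8% of all genes were called in gel against PBS. The share was 6.17% in PBS against uninjured and 25.6% in gel against uninjured muscle. Of the 4 subunits of complex II, the succinate dehydrogenase that links the chain to the citric acid cycle, none was higher and 1 was lower in gel against PBS. That was Sdha, its catalytic flavoprotein, with 314, 347, 506 and 399 CPM in gel muscle, against 587, 615, 585 and 458 CPM in PBS muscle (-0.52 ± 0.15, edgeR adjusted p = 0.0177, lost without gel 2 or PBS 2 at 0.0531 to 0.0572). Neither Cycs, cytochrome c, nor Cyc1, cytochrome c1, passed the test in any comparison. None of the 13 subunits encoded by mitochondrial DNA had a symbol in the files used here, so they were not analysed here.

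Assembly factors had calls in both directions. Of 6 for complex III, 1 was higher and 1 lower in gel against PBS, where 29.8% of all genes were called. Uqcc3, a small factor that stabilises newly made cytochrome b, had 28.5, 32.7, 34.9 and 30.4 CPM in gel muscle, against 19.8, 17.2, 20.9 and 20.8 CPM in PBS muscle and 26.7, 33.5, 26.4 and 27.7 CPM in uninjured muscle. The PBS libraries overlapped neither other group, and it rose by 0.68 ± 0.12 in gel against PBS (log2, edgeR adjusted p = 0.00203) and changed by -0.54 ± 0.12 in PBS against uninjured muscle (0.0134, lost without PBS 2 or uninjured 2 at 0.0578 to 0.0617). Uqcc1, its partner in cytochrome b synthesis, changed by -0.53 ± 0.13 in gel against PBS (0.00766).

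Of 18 tested factors for complex IV, 2 were higher and 1 lower in gel against PBS, where 29.8% of all genes were called. Cox17, a small copper chaperone, rose by 0.46 ± 0.11 (log2, edgeR adjusted p = 0.0082) and also changed by -0.43 ± 0.11 in PBS against uninjured muscle (0.0371), and the second call was lost without PBS 1, 2 or 3 or uninjured 2, 3 or 4 (0.0514 to 0.127). The other higher factor was Pet100 (0.52 ± 0.16, edgeR adjusted p = 0.0231, lost without gel 1, gel 2, PBS 1 or PBS 2 at 0.0541 to 0.0756). The lower one was Taco1, a translational activator of Cox1 mRNA, with -0.78 ± 0.27 (0.047) in gel against PBS and 1.24 ± 0.28 (0.0196) in PBS against uninjured muscle. Its calls were lost on leaving out any library other than gel 3 and PBS 4 in the first comparison (0.0542 to 0.111), and without PBS 1, PBS 2 or uninjured 2, 3 or 4 in the second (0.0619 to 0.0736).

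For complex I, 1 of 14 factors was higher and none lower in gel against PBS, where 29.8% of all genes were called. This was Foxred1, with 21.1, 29.4, 27.4 and 27.96 CPM in gel muscle, against 19.6, 19.96, 21.1 and 21.01 CPM in PBS muscle and 18.2, 18.1, 18.4 and 23.3 CPM in uninjured muscle. Gel 1 was level with PBS 3 and below the other gel libraries (0.38 ± 0.13, edgeR adjusted p = 0.0375, kept only without gel 1, gel 3 or uninjured 4). Against uninjured muscle, Foxred1 was higher (0.44 ± 0.13, 0.0196, lost without gel 2, gel 4 or uninjured 1, 2 or 3 at 0.062 to 0.0814). Ecsit was lower (-0.37 ± 0.13, 0.0492), a call kept only without gel 1, gel 3 or PBS 4, and its change turned to 0.15 with scaling to muscle fibre genes. Of the 5 factors for complex V, none was higher and 3 were lower. Among these, Tmem70, which helps assemble the c-ring, changed by -0.38 ± 0.11 (edgeR adjusted p = 0.0184, lost without gel 4 at 0.0525) and turned to 0.04 with scaling to muscle fibre genes. Atpaf1 and Atpaf2, chaperones of the F1 head, changed by -0.81 ± 0.24 (0.021, lost without gel 2, gel 4 or PBS 2 at 0.0527 to 0.064) and -0.43 ± 0.14 (0.0351, lost without gel 1, 2 or 4 or PBS 1, 2 or 3 at 0.0648 to 0.0946).

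Of 16 regulators of mitochondrial biogenesis, 1 was higher and 6 were lower in gel against PBS, where 29.8% of all genes were called. In PBS against uninjured muscle 2 were higher and 1 lower, with 6.17% of all genes called. In gel against uninjured muscle 2 were higher and 4 lower, with 25.6% of all genes called. Perm1, a muscle regulator acting with PGC-1 and ERR proteins, had 149, 122, 232 and 108 CPM in gel muscle, against 291, 396, 336 and 220.4 CPM in PBS muscle and 207, 215, 208 and 204 CPM in uninjured muscle. Gel 3 lay within the PBS range and the other gel libraries lay under every other library. The difference of gel against PBS was -1.03 ± 0.22 (log2, edgeR adjusted p = 0.00422), and -1.31 without gel 3.

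Nrip1, a corepressor of nuclear receptors, was lower in all 3 comparisons, with 8.43, 13.3, 13.3 and 12.1 CPM in gel muscle, against 20.7, 17.6, 18.3 and 23.3 CPM in PBS muscle and 25.7, 36.5, 37.2 and 28.1 CPM in uninjured muscle. The 3 groups did not overlap. The change was -0.76 ± 0.17 in gel against PBS (log2, edgeR adjusted p = 0.0048) and -1.43 ± 0.17 in gel against uninjured muscle (9.16e-05), both kept on leaving out each library in turn. In PBS against uninjured muscle it was -0.67 ± 0.17 (0.0247), lost without PBS 1, 2 or 3 or uninjured 2 or 3 (0.0634 to 0.0996).

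Tfb2m, which encodes a mitochondrial transcription factor, had 29.7, 40.6, 51.6 and 33.1 CPM in gel muscle, against 56.5, 53.7, 59.9 and 58.2 CPM in PBS muscle and 49.7, 47.9, 59.8 and 51.5 CPM in uninjured muscle, with all gel libraries below all PBS libraries. Its change in gel against PBS was -0.56 ± 0.15 (log2, edgeR adjusted p = 0.0119), kept on leaving out each library in turn. Against uninjured muscle it was -0.43 ± 0.15 (0.0438), kept only without gel 3 or PBS 4, and turned to 0.08 with scaling to muscle fibre genes. Its relative Tfb1m was higher in gel than in uninjured muscle (0.72 ± 0.20, 0.0145, lost without gel 2 at 0.0519). Esrrb, a receptor gene of the ERR family, was higher in PBS than in uninjured muscle (1.57 ± 0.40, edgeR adjusted p = 0.0359, lost without PBS 1, 2 or 3 or any uninjured library at 0.065 to 0.112) and lower in gel than in PBS muscle (-1.20 ± 0.40, 0.0356, lost without gel 2, gel 4, PBS 2 or PBS 3 at 0.0581 to 0.0958).

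The nuclear receptor gene Esrra, a partner of PGC-1 at respiratory genes, had 62.2, 47.02, 82.7 and 47.4 CPM in gel muscle, against 69.9, 91.8, 99.8 and 83.8 CPM in PBS muscle, with gel 3 overlapping (-0.53 ± 0.17, edgeR adjusted p = 0.0255, lost without gel 2, gel 4, PBS 2 or PBS 3 at 0.0634 to 0.08). The coactivator gene Ppargc1a had 19.6, 17.6, 32.1 and 16.2 CPM in gel muscle, against 27.97, 39.4, 33.3 and 32.2 CPM in uninjured muscle, a change of -0.64 ± 0.20 (0.0279) that was lost without gel 1, gel 2, gel 4 or uninjured 2, 3 or 4 (0.0524 to 0.0867). Against PBS muscle its change was -0.51 ± 0.20 (0.0646).

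Its relative Ppargc1b had 59.6, 54.9, 63.4 and 40.4 CPM in gel muscle, against 39.4, 40.8, 50.1 and 37.5 CPM in PBS muscle and 15.7, 18.6, 15.6 and 18.4 CPM in uninjured muscle. All injected muscles were above all uninjured muscles, and the change was 1.30 ± 0.15 in PBS against uninjured muscle (log2, edgeR adjusted p = 0.000141) and 1.68 ± 0.15 in gel against uninjured muscle (1.36e-05). Both calls were kept on leaving out each library in turn. Nrf1, Gabpa, which encodes the DNA-binding subunit of GABP, and Tfam, the mitochondrial transcription and packaging factor, passed the test in no comparison, with changes of 0.03 ± 0.16, -0.32 ± 0.15 and -0.27 ± 0.13 in gel against PBS. The regulator called higher in gel against PBS was Gabpb1, which encodes the partner subunit of GABP and is named after its values were seen. It had 16.5, 13.9, 11.5 and 10.9 CPM in gel muscle, against 9.62, 10.98, 7.79 and 7.86 CPM in PBS muscle, with gel 4 just below PBS 2 (0.54 ± 0.18, edgeR adjusted p = 0.0362, lost without gel 1, gel 2, PBS 1, PBS 3, PBS 4 or uninjured 3 at 0.0521 to 0.109).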

How the data were processed

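RNA from 12 whole muscles was sequenced, 4 libraries in each of 3 groups, with extraction and library construction by BGI per the labels. The deposited values were counts per gene symbol that the authors had not normalised. Alignment used STAR against mm39, and edgeR is also named, per the submitters' processing notes, without versions. The sources used here do not name the counting program, strand setting, annotation or rule for reads with several matches, so counts of near-identical, overlapping and antisense genes are uncertain. Between 74.9% and 85.9% of the values from 1 to 20 were even in each library, and the labels do not say whether a count is a read or a pair.

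Counts were fitted with edgeR 4.0.16 in R 4.3.3, with filterByExpr (13499 genes kept), TMM scaling, 1 coefficient per group, a shared spread with 9 residual degrees of freedom, robust quasi-likelihood F tests and Benjamini-Hochberg adjustment over all genes. Called means an adjusted p under 0.05, and fold changes are log2 with their standard error. CPM values were computed from the deposited counts with TMM library sizes, levels per kilobase by dividing by the median transcript length in GENCODE M21, and mean log2 levels with a prior count of 2. Log2 isoform ratios had 0.5 added to each count. The fitting steps were tested on simulated data.

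The deposited names give the same animal number to the gel and PBS libraries of 1 replicate, left and right leg, so for these libraries the replicate number is the animal. The fit with the replicate block also held the uninjured libraries, whose numbers are not known to match these animals. Deviations of same-numbered gel and PBS libraries from their group means correlated at 0.14, -0.06, 0.31 and 0.08 over all genes. For differently numbered gel and PBS libraries the correlations ran from -0.27 to 0.20. The members and all lists were chosen with earlier results of these data known. Members are named where they were called in any comparison, belong to an isoform pair, or had the highest or lowest fold change of a complex in gel against PBS or PBS against uninjured, and list genes where called, up to 4 of the smallest p per list, beside 5 regulators; 1 called member is not reported here by name. The 3 left out and 3 genes that did not overlap are named as well, and so are 7 list genes chosen after their values were seen. The chi-square statistic per gene between libraries of a group was 6.50 or higher, so none was a repeat of another. Nothing says that animals were not pooled, and p-values measure the spread between these libraries. Alternatives were DESeq2 1.42.0, voom in limma 3.58.1, other scalings and filters, the 2 groups alone, and each library left out.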

Additional observations from a re-analysis of the deposited data

Results flagged for a closer look

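In 222 groups of 4 libraries, 1 library stood apart from the other 3 in 17 by Dixon's criterion for gaps, and chance alone flags about 1 in 20 groups. In gel muscle, Atp5a1 had 1849 CPM in gel 3, against 1208 to 1315 CPM in the others. Atp5k had 219 CPM in gel 4, against 155.9 to 164.7 CPM. Gel 1 was high for the low forms Cox4i2, with 10.99 CPM against 5.53 to 5.98 CPM, and Ndufa4l2, with 23.06 CPM against 9.60 to 11.05 CPM. The log2 ratio of Cox6b2 over Cox6b1 was -14.78 in gel 3, where Cox6b2 had 0 counts, against -9.97 to -9.21 in the others.

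In PBS muscle, PBS 1 was high for the collagen genes Col1a1 (450.8 CPM, against 183.3 to 214.3 CPM) and Col1a2 (257.9 CPM, against 103.4 to 119.6 CPM). The log2 ratio of Cox6a2 over Cox6a1 was 7.101 in PBS 4, against 7.33 to 7.38 in the others.

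In uninjured muscle, uninjured 1 was high for Cox4i1 (643.8 CPM, against 621.8 to 623.7 CPM), low for Cox6a2 (5447 CPM, against 6157 to 6286 CPM) and low for the log2 ratio of Cox8b over Cox8a (3.775, against 3.97 to 3.98). Uninjured 4 was high for Cox7a1 (781.3 CPM, against 580.4 to 614.7 CPM), for the complex I assembly factor Foxred1 (23.3 CPM, against 18.06 to 18.39 CPM), for the regulator Nrf1 (7.345 CPM, against 6.63 to 6.72 CPM) and for the slow troponin gene Tnni1 (21.02 CPM, against 1.137 to 3.12 CPM). Uninjured 3 was high for Uqcrfs1 (239.3 CPM, against 217.7 to 219.6 CPM), and uninjured 2 was low for Uqcrq (494.8 CPM, against 556.8 to 565.2 CPM).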

How the results depend on the processing

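For gel against PBS, 14 members were called, 39 with library totals alone, 5 with the 2 groups alone, 23 with the replicate block, 60 with scaling to muscle fibre genes (an alternative chosen after seeing the data) and 6 to 24 with each library left out. For PBS against uninjured, 7 were called, 18 with DESeq2, 29 with the 2 groups alone, 2 with fibre scaling and 0 to 20 with each library left out. For gel against uninjured, 6 were called, 15 with library totals alone, 3 without a filter on low counts, 13 with DESeq2, 2 with the 2 groups alone, 52 with fibre scaling and 1 to 19 with each library left out. The replicate block, whose number pairs nothing outside the gel and PBS legs, gave 9 and 8 calls in the comparisons with uninjured muscle. Over all genes, 4022 were called in gel against PBS, 2559 with the 2 groups alone and 2456 to 5962 with each library left out. In PBS against uninjured 833 were called, 1415 with DESeq2, 2339 with the 2 groups alone and 378 to 1693 with each library left out, and in gel against uninjured 3449 were called, 7388 with fibre scaling and 2275 to 5341 with each library left out. The cause was not tested.

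The medians of complexes I, III, IV and V in gel against PBS were 0.24, 0.30, 0.45 and 0.24 with library totals alone and 0.47, 0.52, 0.67 and 0.47 with fibre scaling. In gel against uninjured they were 0.11, 0.15, 0.18 and 0.17 with library totals alone and 0.39, 0.41, 0.44 and 0.44 with fibre scaling. The median of all genes stood at 0.25 and 0.47 in gel against PBS and at 0.30 and 0.57 in gel against uninjured with these 2 scalings. With fibre scaling the sign turned for Atp5b (0.03), Cox7a2l (0.08) and Tmem70 (0.04) in gel against PBS, and for Ndufb2 (0.05), Ecsit (0.15), Tfb2m (0.08) and Vdac3 (0.07) in gel against uninjured. The difference of Cox6a2 over Cox6a1 in PBS against uninjured lay between -0.02 and 0.16 with each library left out. That of Cox6b2 over Cox6b1 lay between -0.90 and 0.95 in gel against PBS and between -1.32 and 0.54 in gel against uninjured, both turned by leaving out gel 3. Of the other values of single genes, 1068 kept their direction and side of the threshold and 353 kept the direction but missed the threshold. At 15626086 to 22182483 counts per library, depth limits Cox6b2 and Ndufb4c among the members.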

Other observations

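Of 12 other mitochondrial proteins, none was higher and 2 were lower in gel against PBS, where 29.8% of all genes were called. In PBS against uninjured muscle 1 was higher and none lower, with 6.17% of all genes called. In gel against uninjured muscle none was higher and 1 lower, with 25.6% of all genes called. Hspd1, the chaperonin that folds imported proteins, had 43.7, 58.4, 80.95 and 59.2 CPM in gel muscle, against 93.9, 108, 115 and 88.9 CPM in PBS muscle and 63.95, 62.8, 70.5 and 59.6 CPM in uninjured muscle. Gel 3 lay between the uninjured and the PBS libraries, and the other gel libraries lay below every uninjured library. Its log2 fold change was -0.74 ± 0.16 in gel against PBS (edgeR adjusted p = 0.00389) and 0.66 ± 0.16 in PBS against uninjured muscle (0.021), and the second call was lost without PBS 2, PBS 3 or uninjured 1, 2 or 4 (0.0576 to 0.0826). Immt, which organises the cristae, was the other lower gene in gel against PBS (-0.43 ± 0.14, edgeR adjusted p = 0.0266, lost without gel 1, 2 or 4 or PBS 1, 2 or 3 at 0.0513 to 0.0723). Vdac3, a channel of the outer membrane, was the lower one in gel against uninjured muscle (-0.43 ± 0.15, 0.0415, kept only without gel 3, PBS 1, PBS 3 or PBS 4), and turned to 0.07 with scaling to muscle fibre genes.

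Both pseudogene symbols that were left out had counts in every library. Ndufs5-ps had 182, 102, 92 and 774 counts in gel muscle, against 62, 50, 72 and 72 in PBS muscle and 212, 74, 98 and 78 in uninjured muscle, with gel 4 far above the others. Cox7c-ps1 had 32, 40, 32 and 70 counts in gel muscle, against 10, 22, 32 and 28 in PBS muscle and 28, 36, 36 and 34 in uninjured muscle. Reads of these copies and of Ndufs5 and Cox7c cannot be told apart with certainty.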
